A study of Mus musculus with 2 samples.

Results

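The Mir130 and Mir301 family is a group of miRNA genes whose main mature products begin with the same bases. Its members were taken by name from the GENCODE M21 annotation of the mm10 assembly as Mir130a, Mir130b, Mir301 (also written Mir301a) and Mir301b, which makes 4 of the 1973 miRNA genes counted. They were measured by microRNA sequencing, for which the labels give a size range below 30, in neural tube from B6NCrl mouse embryos at 12.5 days. The only group holds 2 biological replicates, pools of male and female embryos with 120 embryos in replicate 1 and 88 in replicate 2. All are labelled healthy, and no mutant, treatment, other age or other tissue stands beside them, so levels are compared between genes and between the pools.

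A miRNA is cut from a hairpin, and either arm of the hairpin (5p or 3p) can be loaded into an Argonaute protein. The seed, bases 2 to 8 of the mature RNA, pairs with messenger RNAs and lowers their translation and stability, so miRNAs with one seed can act on overlapping targets. Members of this family have been studied in proliferating and vascular cells. In human endothelial cells miR-130a was described as lowering the homeobox factors GAX and HOXA5.

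The mature sequences are shown because the seed defines the family and the later bases tell its members apart. All 4 genes matched a RefSeq entry (GRCm38.p6). The 3p entries, with the seed in capitals, written 5′ to 3′, are these.
mmu-miR-130a-3p: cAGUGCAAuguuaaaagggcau
mmu-miR-130b-3p: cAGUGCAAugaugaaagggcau
mmu-miR-301a-3p: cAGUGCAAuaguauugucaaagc
They lie on the minus strand of chr2:84741116-84741137 (miR-130a-3p), the minus strand of chr16:17124071-17124092 (miR-130b-3p) and the plus strand of chr11:87113054-87113076 (miR-301a-3p). The 3 entries share their first 9 bases. Counted from 1 at the 5′ end, miR-130b-3p differs from miR-130a-3p at 2 of 22 positions, U11A and A13G, while miR-301a-3p matches miR-130a-3p at 12 of the first 22 and miR-130b-3p at 11. For Mir301b the hairpin is given instead, with the same 7 letters in capitals where they occur once, beside the hairpin of its neighbour Mir130b.
Mir301b hairpin: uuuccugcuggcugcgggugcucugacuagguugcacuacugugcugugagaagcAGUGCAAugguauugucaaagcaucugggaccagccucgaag
Mir130b hairpin: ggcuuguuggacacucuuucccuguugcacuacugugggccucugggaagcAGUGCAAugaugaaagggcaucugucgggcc
These hairpins span chr16:17124400-17124496 and chr16:17124061-17124142 on the minus strand.

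The 5p arms fell into a different grouping, with seeds again in capitals.
mmu-miR-130a-5p: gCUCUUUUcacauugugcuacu
mmu-miR-130b-5p: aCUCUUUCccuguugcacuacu
mmu-miR-301a-5p: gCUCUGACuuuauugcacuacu
mmu-miR-301b-5p: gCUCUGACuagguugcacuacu
Mir301 and Mir301b share the 5p seed CUCUGAC, and their 5p arms match at 19 of 22 positions, with the substitutions U10A, U11G and A12G from miR-301a-5p to miR-301b-5p. Mir130a and Mir130b each have a 5p seed of their own within the family. The last 10 bases are common to the 5p arms of Mir130b, Mir301 and Mir301b, and all 4 share the last 5. A gene's count holds reads of both arms, so which of these mature RNAs the reads came from was not measured.

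The members lie at 3 places in the genome (mm10, M21). Mir130a (ENSMUSG00000065484) stands alone on chromosome 2 at 84741115 to 84741178, overlaps no other annotated gene and lies 990 bases from Gm19426, a protein-coding gene on the same strand. Mir301 (ENSMUSG00000065589), on chromosome 11 at 87113004 to 87113089, lies in an intron of Ska2, which encodes a subunit of the spindle and kinetochore associated complex: 2 of 3 Ska2 transcripts span it and none has an exon there. Mir301b (ENSMUSG00000076288) and Mir130b (ENSMUSG00000065572) sit on chromosome 16 on the minus strand with 257 bases between their hairpins. Both are intronic in the protein-coding gene 2610318N02Rik: 3 of its 8 transcripts span each hairpin, and none has an exon at either. Whether an exon lies between the hairpins was not examined. Mir301b and Mir130b were the only members with another miRNA gene within 10 kb.

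Own-strand reads assigned to miRNA genes numbered 4802411 in replicate 1 and 4422853 in replicate 2. Levels are given as reads per 1000000 of these (CPM), and errors are the SD of 2 replicates. They are not divided by hairpin length, since the mature products are all of nearly the same length. Genes with 10 or more reads in each library were called detected, and 371 genes were, the 4 members among them. The 6 listed miRNA genes of the Hox clusters, which mark the trunk neural axis among other tissues, held 356303 ± 10686 CPM. Of 10 listed neuronal and neural progenitor genes 9 were counted and 7 detected, with a summed level of 4238 ± 444 CPM. The multicopy Mir124a genes had at most 52 reads in a library. Reads that map to more than 1 place count for no gene, and how many the multicopy genes of this list lost was not tested. The endothelial gene Mir126a had 19281 ± 1447 CPM, the 7 mesenchyme genes summed to 16120 ± 820 CPM, the 3 erythroid genes to 107 ± 7.12 CPM and the 3 counted leukocyte genes to 326 ± 32.9 CPM. Markers of other cell types were thus present, and their part in the family's levels was not tested. In such bulk tissue fewer cells of a type and less RNA per cell cannot be told apart.

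Together the 4 genes had 120723 reads in replicate 1 and 116354 in replicate 2. That is 2.51% of the gene reads in replicate 1 (95% Clopper-Pearson interval 2.50 to 2.53) and 2.63% in replicate 2 (2.62 to 2.65), a mean of 2.57% ± 0.0827. Most of the family's reads came from Mir130a, with 72.8% ± 0.508, followed by Mir130b with 20.7% ± 0.517, Mir301 with 5.90% ± 0.0613 and Mir301b with 0.605% ± 0.0701. Without Mir130a the family held 0.701% ± 0.0356 of the gene reads. The median of the 4 members' mean levels was 3426 CPM, against 115 CPM over all detected genes.

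**Figure D1:**
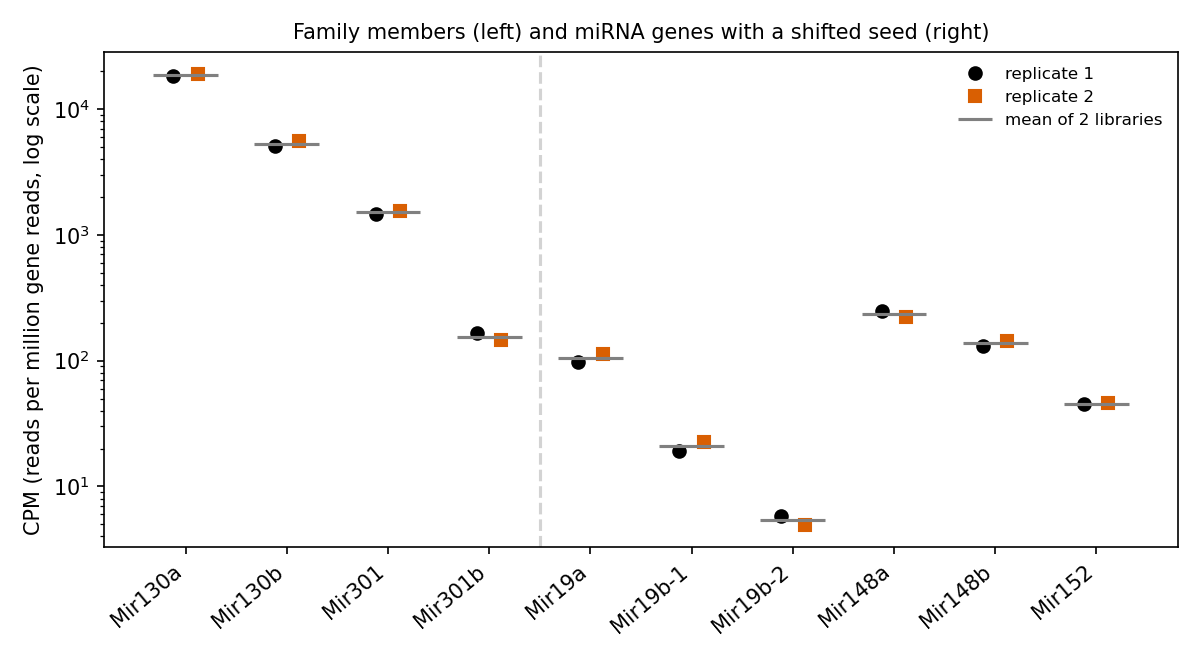
CPM on a log axis for the 4 family members (left of the dashed line) and for 6 miRNA genes whose seed is shifted by 1 base (right), with replicate 1 as circles, replicate 2 as squares and grey lines for the mean of the 2 libraries. Both libraries place the members in the order Mir130a, Mir130b, Mir301, Mir301b, with 18715, 5335, 1518 and 155 CPM on average.

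Mir130a, the member studied in blood vessel cells, had 88276 reads in replicate 1 and 84245 in replicate 2. Its level was 18382 CPM in replicate 1 and 19048 CPM in replicate 2, a mean of 18715 ± 471 CPM (n = 2). It ranked 10 of all miRNA genes in replicate 1 and 8 in replicate 2, and 97.6% of the detected genes lay below it. Closest to it in level, by the summed absolute difference of log2(CPM + 1) over the 2 libraries, were Mirlet7g of the let-7 family (difference 0.19) with 17546 ± 223 CPM and Mir126a (0.20). The ratio of Mir130a to Mir126a was 0.905 in replicate 1 and 1.04 in replicate 2, so the order of these genes was not the same in the pools. The mean ratio was 0.974 ± 0.0975, within its spread of 1.

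Mir130b followed with 24587 reads in replicate 1 and 24548 in replicate 2. Its level was 5120 CPM in replicate 1 and 5550 CPM in replicate 2, a mean of 5335 ± 304 CPM, and it ranked 34 by mean level. Mir130a outnumbered it by 3.59 times in replicate 1 and 3.43 times in replicate 2, a mean ratio of 3.51 ± 0.112, although their 3p sequences differ at 2 bases only. The genes nearest to Mir130b in level were Mir143 (summed difference 0.03, 5340 ± 233 CPM), a miRNA gene of smooth muscle, and Mir151 (0.24, 4901 ± 165 CPM). The means of Mir130b and Mir143 differed by less than the spread between the replicates.

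Mir301, the Ska2 intronic member, had 7070 reads in replicate 1 and 6915 in replicate 2. Its level was 1472 CPM in replicate 1 and 1563 CPM in replicate 2, a mean of 1518 ± 64.5 CPM at rank 70. Mir130b outnumbered it by 3.51 ± 0.0511 times and Mir130a by 12.3 ± 0.214 times. Its nearest genes in level were Mir181b-2 (summed difference 0.19, 1427 ± 168 CPM) and Mir16-1 (0.20, 1462 ± 208 CPM), and Mir301 did not differ from either by more than their spread.

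Mir301b had the fewest reads, 790 in replicate 1 and 646 in replicate 2. Its level was 165 CPM in replicate 1 (interval 153 to 176) and 146 CPM in replicate 2 (135 to 158), a mean of 155 ± 13.0 CPM at rank 170, with 54.2% of the detected genes below it. Its CPM was the only one of the 4 that was higher in replicate 1. Mir301 outnumbered Mir301b by 9.83 ± 1.24 times and Mir130a did so by 121 ± 13.2 times. Mir195a (summed difference 0.13, 151 ± 3.18 CPM) and Mir7-2 (0.17, 149 ± 24.7 CPM) lay nearest to it, within the spread of Mir301b.

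**Figure D2:**
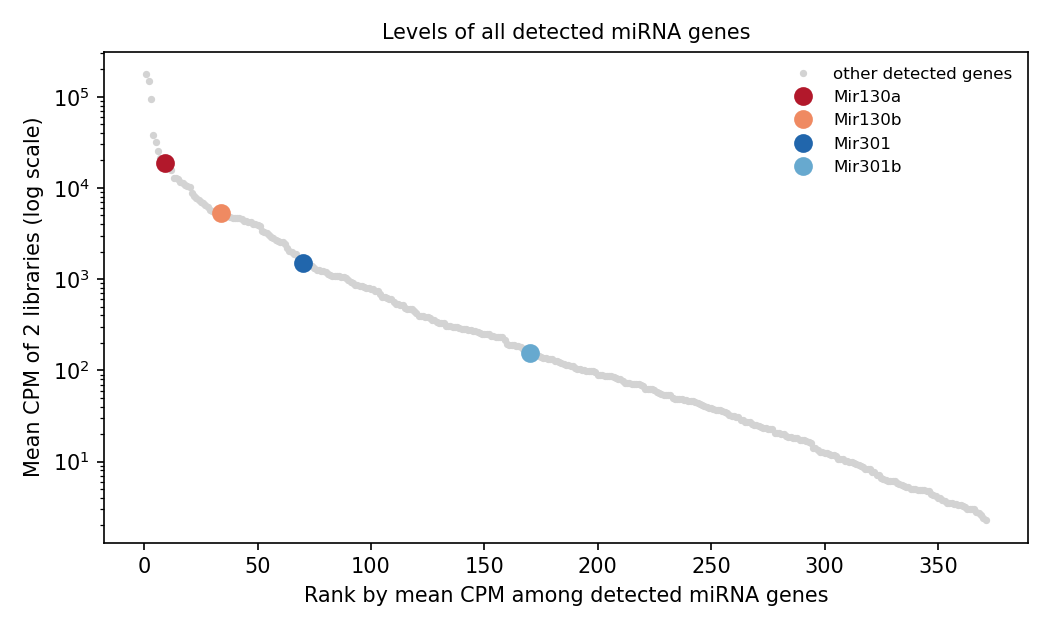
Mean CPM of the 2 libraries (log axis) against rank for the 371 detected miRNA genes, in grey, with the 4 members in colour. The members are spread from rank 9 (Mir130a) over 34 (Mir130b) and 70 (Mir301) to 170 (Mir301b).

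Every gap between neighbours in the family order was larger than the spread between replicates, and the order was the same in both libraries. With 2 libraries no exact test of the order of 1 pair of genes can go below p = 0.5, so none is given. The whole order was not tested. How evenly the protocol captured different sequences was not tested, and the ratios between members are ratios of reads.

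The hairpins of the neighbours Mir130b and Mir301b have the same orientation and are intronic in one host gene, and their reads differed widely. Mir130b outnumbered Mir301b by 31.1 times in replicate 1 (95% counting interval 29.0 to 33.4) and 38.0 times in replicate 2 (35.1 to 41.2), a mean of 34.6 ± 4.86. The intervals of the pools did not overlap, so this ratio differed between the libraries by more than counting error. On the log2 scale the difference was 0.29. The SD of a single gene's log2 ratio was 0.33 at the coefficient of variation common to all detected genes (16.3%). The SD for a ratio of 2 genes was not estimated, so 0.33 is a rough scale only.

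**Figure D3:**
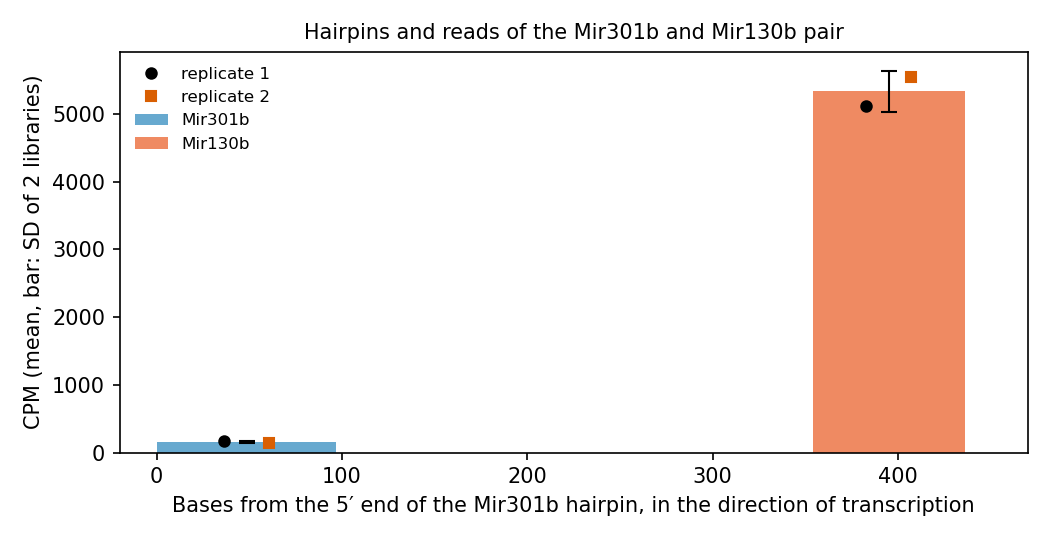
Map of the Mir301b and Mir130b hairpins, drawn to scale in bases from the 5′ end of the Mir301b hairpin in the direction of transcription, with bar height for the mean CPM, error bars for the SD of 2 libraries and points for replicate 1 (circles) and replicate 2 (squares). The hairpins are 257 bases apart, and the reads differ by 34.6 ± 4.86 times.

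Sequence similarity between members and to other genes bears on how reads were assigned, because reads that map to more than 1 place are held in a separate row and count for no gene. Such reads were 27.0% of the whole file in replicate 1 and 28.6% in replicate 2. Mir301 and Mir301b shared an identical run of 16 bases, the longest between any members. No member shared a longer run than 17 bases with any of 2201 other annotated miRNA hairpins, and that run was between Mir130a and Mir6389. The rest of the genome and inexact matches were not searched. How many reads the members lost to mapping at more than 1 place was not tested. Reads on the opposite strand numbered 3 over the 4 members and both libraries, 0.00127% of their reads, against 0.0940% over all detected genes. Of the 371 detected genes 325 had no opposite-strand read, so a low share is common.

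Outside the 4 members, 4 further mouse miRNA genes carry the seed AGUGCAA in the RefSeq table, which holds 1738 mature entries. Their sequences show how far the likeness to the members runs beyond the seed.
mmu-miR-6389: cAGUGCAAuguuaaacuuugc
mmu-miR-130c: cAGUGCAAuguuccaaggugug
mmu-miR-6341: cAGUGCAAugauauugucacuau
mmu-miR-721: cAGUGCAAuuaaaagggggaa
They lie on the plus strand of chr7:57581070-57581090, the minus strand of chr9:53400808-53400829, the plus strand of chr1:12426016-12426038 and the minus strand of chr5:136375777-136375797. The first 15 bases of miR-6389 and the first 12 of miR-130c equal those of miR-130a-3p. Mir6389, Mir130c and Mir6341 had no read in replicate 1 (at most 0.625 CPM each, the limit of 3 counts) and none in replicate 2 (at most 0.678 CPM). Of the 1973 counted genes 1237 had no own-strand read in either library, so having no read was common. Against the floor of 3 counts per library, even the lowest member, Mir301b, had at least 263-fold more counted reads than Mir6389, Mir130c or Mir6341 in replicate 1. In replicate 2 it had at least 215-fold more. Reads that map to more than 1 place count for no gene, and how many Mir6389, Mir130c and Mir6341 lost was not tested. Mir721 was not analysed here.

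Other groups carry the core of this seed shifted by 1 base. The Mir19 genes of the Mir17 and Mir106a clusters hold GUGCAA from base 2, and the Mir148 and Mir152 genes hold AGUGCA from base 3.
mmu-miR-19a-3p: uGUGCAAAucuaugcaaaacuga
mmu-miR-148a-3p: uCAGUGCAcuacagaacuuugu
These come from the plus strand of chr14:115044048-115044070 and the minus strand of chr6:51269829-51269850. All 6 genes were detected, with 236 ± 17.1 CPM for Mir148a, 138 ± 9.09 for Mir148b, 106 ± 10.4 for Mir19a, 45.4 ± 0.344 for Mir152, 20.8 ± 2.28 for Mir19b-1 and 5.40 ± 0.605 for Mir19b-2. The 4 family members together outnumbered the 6 by 46.7 ± 1.12 times. Reads that map to more than 1 place count for no gene. How many reads the 6 genes lost in this way, Mir19b-1 and Mir19b-2 among them, was not tested. Mir130a, Mir130b and Mir301 each lay above all 6 genes, Mir301 by 6.45 ± 0.740 times over Mir148a. Mir301b lay below Mir148a, and its ratio to Mir148b, 1.13 ± 0.169, lay within its spread of 1.

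Differences between the pools were small in this family, at most 1.11-fold among the members past the test below. The libraries were compared with a two-sided exact binomial test per gene on totals scaled by TMM (trimmed mean of M values), adjusted by Benjamini-Hochberg over the 371 detected genes. This test compares the 2 libraries and covers counting error alone. Of all detected genes 53.1% passed it at 0.05, and 3 of the 4 members did. All 3 were lower in replicate 1, a direction in which 27.0% of detected genes passed. No member passed as higher there, as 26.1% of detected genes did. Genes with more reads pass this test at smaller differences. The 3 members had mean levels of 1518 CPM (Mir301) or more, against a median of 115 CPM over all detected genes. Whether they passed more often than other genes of their level was not tested. Mir130a was 0.939-fold in replicate 1 relative to replicate 2 (95% counting interval 0.931 to 0.948, adjusted p = 1.03e-37, exact test), Mir130b 0.898-fold (0.882 to 0.914, adjusted p = 4.97e-32, exact test) and Mir301 0.916-fold (0.887 to 0.947, adjusted p = 8.27e-07, exact test). Mir301b was 1.10-fold (0.987 to 1.22) and did not pass (adjusted p = 0.14, exact test). It passed (adjusted p = 0.035, exact test) only when scaling and test were limited to genes with at least 100 reads in both libraries. With other scalings, minimums or strands its adjusted p (exact test) ran from 0.0506 (library totals) to 0.428 (at least 1 read in either library). No member was 2-fold apart, which 2.70% of detected genes were past the same test.

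**Figure D4:**
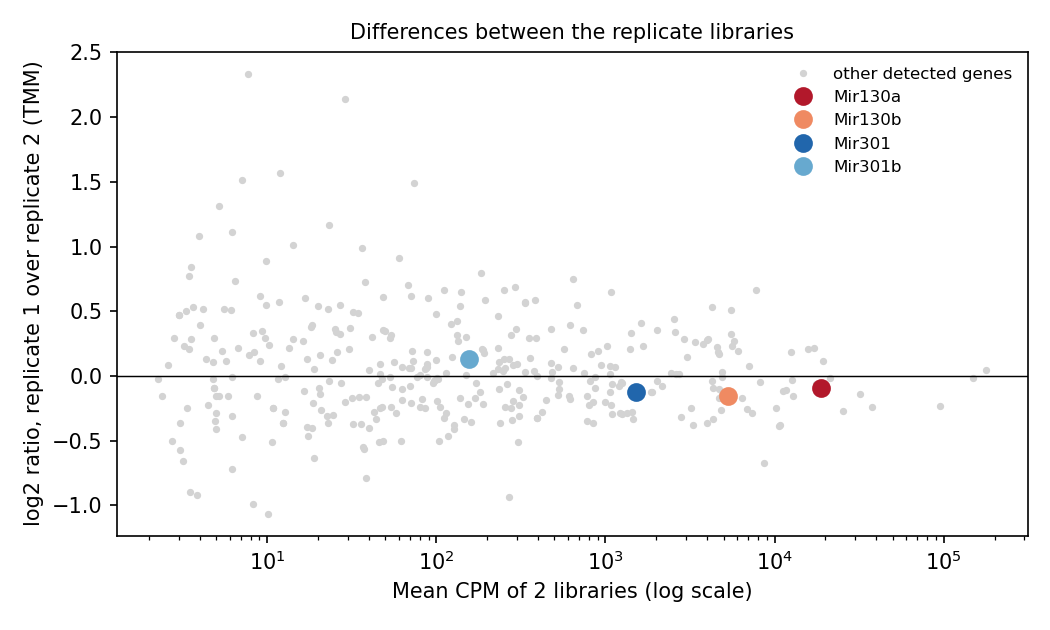
The log2 ratio of replicate 1 to replicate 2 after TMM scaling against mean CPM (log axis) for the 371 detected genes in grey and the 4 members in colour. The members lie between -0.16 (Mir130b) and 0.13 (Mir301b), near the line of no difference.

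The median log2 ratio of the members was -0.11, against 0.00 over all detected genes. Their median absolute log2 ratio was 0.13, against 0.24, and 260 detected genes differed more between the libraries than Mir301b. The members' median level was 3426 CPM, against 115 CPM over all detected genes, and ratios were not compared at matched levels. Of the 6 genes with the shifted seed, Mir19a alone passed the test, also lower in replicate 1 (log2 ratio -0.24, adjusted p = 0.0195, exact test).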

How the data were processed

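The authors deposited whole-number counts of reads per miRNA gene for each library, with no normalization, in 3 columns (both strands, own strand, opposite strand), made on mm10 with annotation M4 from that library's alignment, per the notes deposited with the counts. For the aligner, the counter and the trimming: not given in the sources used here. The column the rule names, that of the gene's own strand, was used, leaving out 4 rows with no gene name (unmapped reads were 27.3% of replicate 1 and 20.0% of replicate 2, reads on no feature 8.04% and 4.45%). Symbols came from GENCODE M21, in which 1894 of 1973 identifiers matched, and sequences from RefSeq. CPM is per 1000000 own-strand gene reads. With 1 group edgeR's quasi-likelihood test could not be applied. edgeR 4.0.16 gave TMM factors and the common coefficient of variation, and DESeq2 1.42.0 alternative size factors (R 4.3.3). Tests used scipy 1.17.1 (Python 3.11.15). The exact test was checked on simulated counts with counting error only and unscaled totals. Its behaviour under the further spread between real libraries was not checked. PCR reads carry no molecular identifiers, so intervals, floors and the test cover counting error only. The named genes are the members, genes with their seed or within 10 kb, the 2 nearest in level, and lists of genes with a shifted seed and of cell markers. Members and lists were chosen with earlier results of these data known. Alternatives were other denominators, strands, scalings, detection minimums and single replicates.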

Additional observations from a re-analysis of the deposited data

How the results depend on the processing

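The order of the 4 members was the same under every alternative run. With multiply mapped reads added to the denominator, levels were 11264 CPM for Mir130a, 3213 for Mir130b, 914 for Mir301 and 93.2 for Mir301b, and the family share 1.55%. Without the 2 most abundant genes in the denominator they were 27829, 7932, 2257 and 231 CPM, and the share 3.83%. Both change all genes of a library by one factor, so the order of genes within a library was fixed under them. Single replicates return the orders already given for each library. The members had 3 opposite-strand reads over both libraries, too few for counting both strands to change their order. Leaving out a replicate gave 18382 to 19048 CPM for Mir130a, 5120 to 5550 for Mir130b, 1472 to 1563 for Mir301, 146 to 165 for Mir301b, a share of 2.51% to 2.63%, and ratios of 31.1 to 38.0 (Mir130b to Mir301b), 3.43 to 3.59 (Mir130a to Mir130b), 8.95 to 10.7 (Mir301 to Mir301b) and 12.2 to 12.5 (Mir130a to Mir301). With at least 2-fold required, 0 members and 10 of all detected genes passed, against 3 and 197 without it. Among all detected genes 97 were higher and 100 lower in replicate 1, and 111 and 82 with library totals in place of TMM. With 4 members and 2 libraries, depth limits Mir301b most. No paired analysis was possible because there is 1 group.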
